A study of Mus musculus with 4 samples.

Results

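The genes described here are 32 markers of the first lineages that mouse embryonic stem (ES) cells can enter. They were listed by symbol, with earlier results of these data known. The list holds 4 markers of the primed epiblast, 3 of ectoderm, 7 of mesoderm, 8 of endoderm and 10 of trophectoderm. Of these, 31 are among the 19797 gene symbols of the RefSeq table, and Fgf5, a growth factor of the primed epiblast, was not analysed here. The cells were MC1-ZE7, a mouse ES cell line of strain MC1 (129S6/SvEvTac) whose Emerald reporter, a green fluorescent protein, lights up when Zscan4 is transcribed. All were grown without feeder cells in serum with leukemia inhibitory factor (LIF), which holds ES cells undifferentiated, and were separated by cell sorting into a fraction of high Emerald (Em+) and a fraction without Emerald (Em-). Each fraction gave 2 libraries of total RNA depleted of ribosomal RNA, with no treatment or time course. The line is the only one measured, and whether replicate libraries stem from independent cultures is not in the labels. The p-values therefore speak only of library-to-library spread, and that spread may be technical.

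Zscan4 genes are transcribed in the 2-cell embryo and, in bursts, in a small share of cultured ES cells. ES cells resemble the naive epiblast, and as they leave this state they pass through a primed state marked by Otx2, Pou3f1 and Fgf5 before the germ layers form. Trophectoderm, the layer that builds the placenta, and primitive endoderm, which lines the yolk sac, separate from the epiblast before implantation. Trophectoderm is seldom formed by ES cells. Serum cultures also hold scattered cells that have begun to differentiate. The comparison asks which of these lineage markers differ between cells with and without Zscan4 transcription.

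Levels are given as scaled FPKM, the deposited FPKM (fragments per transcript length and library total) brought to a common library scale, which can be compared between genes and between libraries. The libraries held between 16468218 and 18953217 counts in RefSeq genes. Zscan4 went with the sample titles: the scaled FPKM of its 6 genes summed to 48.4 and 51.1 in Em+ cells and to 0.427 and 0.516 in Em- cells. Em+ replicate 2 stood apart in the share of its counts from Rn45s, a ribosomal RNA precursor, at 7.95% against 3.93% to 4.33% in the other libraries, so results that rest on it are also given without it. All 9 ES cell markers were abundant in both fractions, from a mean of 25.2 for Sall4 to 650 for Dppa5a in Em- cells.

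Most lineage markers were low in both fractions, and none passed the test for a difference. Of the 31 markers, 5 had a mean FPKM under 0.1, 15 lay between 0.1 and 1, and 4 exceeded 5: Otx2, Krt18, Tfap2c and Tead4. Summed over all 31, the scaled FPKM was 47.9 and 47.4 in Em+ cells, 49.6 and 49.9 in Em- cells, against sums of 1630 to 1930 for the 9 ES cell markers. These are bulk libraries, in which fewer cells of a type and less RNA per cell cannot be told apart.

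**Figure D1:**
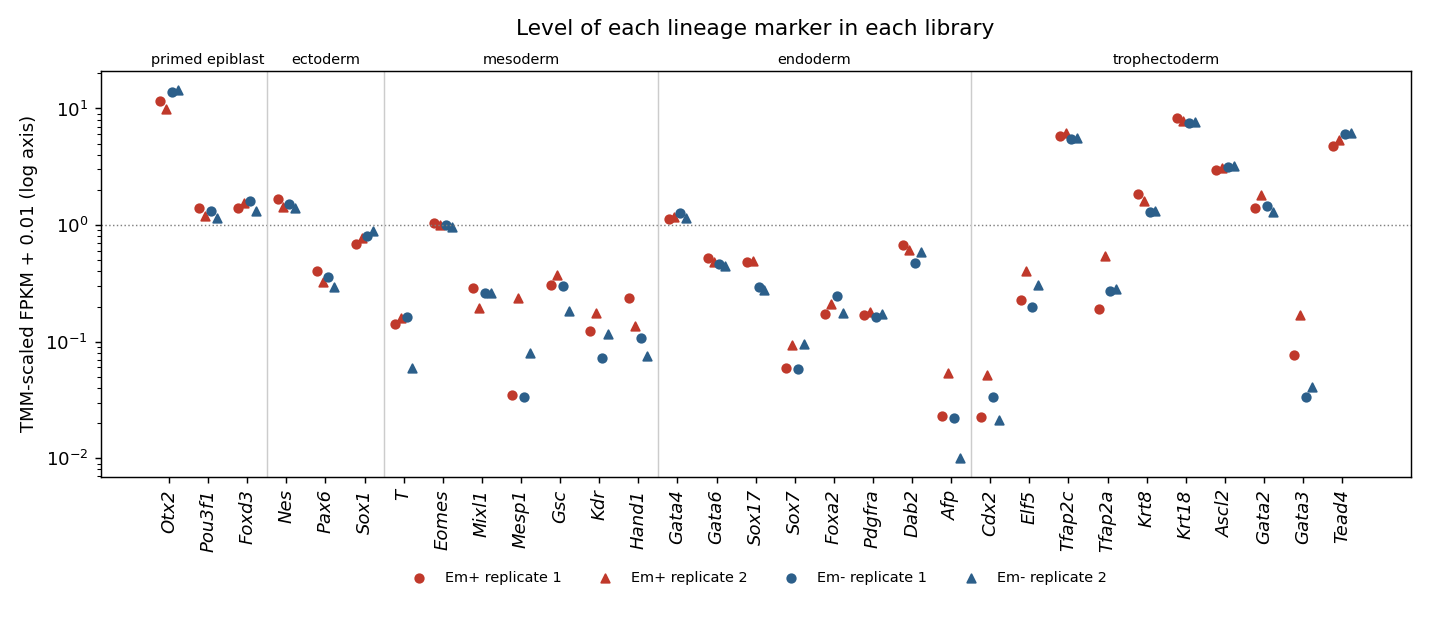
Level of each of the 31 lineage markers in each of the 4 libraries, as scaled FPKM plus 0.01 on a log axis, grouped by lineage. The Em+ and Em- points of most genes lie close together, and only Otx2, Tead4, Tfap2c and Krt18 have a mean over 5.

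The 11 markers with a mean FPKM of at least 1 entered the main test, the quasi-likelihood test of edgeR, adjusted by Benjamini-Hochberg over all 12050 genes at this level. None of the 11 was called at an adjusted p of 0.05, where 4.64% of all genes tested were called, 3.82% as higher and 0.822% as lower in Em+ cells. At an unadjusted p under 0.05 there was 1 marker higher (Krt8) and 2 lower (Otx2 and Tead4), against 25.3% of all genes in either direction. DESeq2 called 1 of the 11, Otx2, and 5.63% of all genes. For the 20 markers below this level, estimates come from the same test with no filter, which took in all 19797 symbols, called 5.95% of them (4.48% higher, 1.47% lower) and called 1 of the 31 markers, again Otx2. Its estimates lay 0.06 lower on the log2 scale than those of the main test over the genes in both.

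The precision of these comparisons followed the number of reads. For the 15 markers with at least 200 reads in the 4 libraries together, the 95% interval of the log2 fold change reached a median of 0.31 to either side, which is 1.24-fold. It reached 0.78 for the 8 markers with 50 to 200 reads and 1.35, or 2.55-fold, for the 8 with fewer. The interval held 0 for 27 of the 31 markers, and it lay wholly within 1 log2 unit of 0 for 18 of them, so a change of 1 log2 unit was outside the interval for those 18. The markers whose interval lay off 0 had an unadjusted p under 0.05 in edgeR, as did 23.9% of all symbols in this fit.

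**Figure D2:**
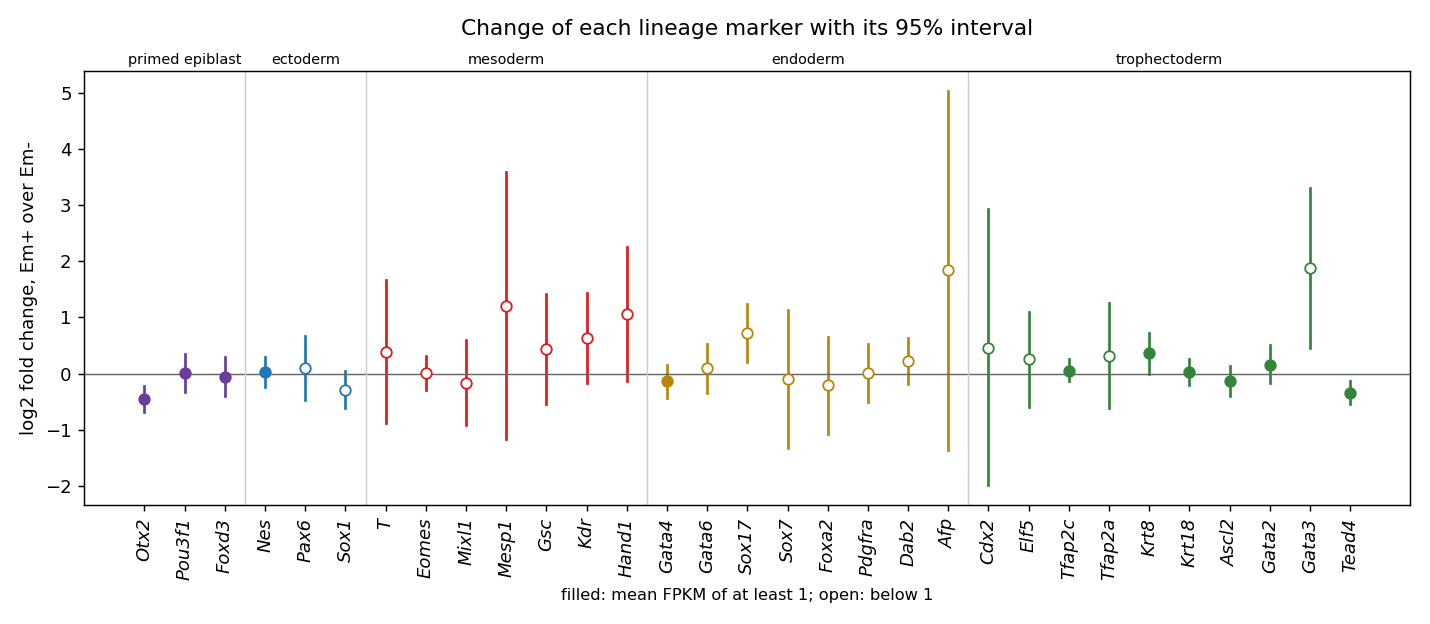
Log2 fold change, Em+ over Em-, of each lineage marker in the fit with no filter, with its 95% interval, and filled points for markers with a mean FPKM of at least 1. Intervals widen as reads become few, and those of Otx2, Tead4, Sox17 and Gata3 lie off 0.

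The primed epiblast markers were led by Otx2, a homeobox factor that drives the exit from the naive state and later patterns the forebrain. Otx2 had a scaled FPKM of 11.6 in Em+ replicate 1, 9.89 in Em+ replicate 2, 13.8 in Em- replicate 1 and 14.5 in Em- replicate 2. Both Em+ libraries lay below both Em- libraries. The log2 fold change was -0.40 (SE 0.09, 95% interval -0.62 to -0.18), or 0.76-fold, with an adjusted p of 0.0596 in edgeR. This just missed the threshold in the main test, and the call changed with the setting. The adjusted p was 0.039 in DESeq2 and 0.0356 in edgeR with no filter on level. With each library left out in turn, the log2 fold change ran from -0.51 to -0.29. The estimate was below 0 under every setting run.

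The other primed markers were far lower in level than Otx2, and neither passed the test. Pou3f1, a POU factor also called Oct6, had a scaled FPKM of 1.38 and 1.19 in Em+ cells and 1.31 and 1.14 in Em- cells, and its log2 fold change was 0.07 (95% interval -0.28 to 0.41, adjusted p = 0.806 in edgeR). Foxd3, a forkhead factor needed by the epiblast, had 1.40 and 1.53 in Em+ cells and 1.60 and 1.32 in Em- cells, with a log2 fold change of 0.00 (-0.35 to 0.36, adjusted p = 0.992 in edgeR). The fractions overlapped for both genes.

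The 4 deposited tables placed the reads of Otx2 on different transcripts. The RefSeq table assigned 97.2% of them to a transcript that begins at position 48665109 of chromosome 14 (mm10, minus strand), while the known-gene table assigned 97.2% to a transcript that begins at 48667644. The read sums over the gene were 3998 and 3999 in these tables and 6008 and 6013 with Ensembl and ENCODE models. The log2 fold change with no filter was -0.45, -0.46, -0.47 and -0.47 in the same order. Start site use of Otx2 therefore cannot be read from the tables, and only the gene sum is compared here. The 250 bases before the upstream start are shown with those before the start of Gata3, the marker with the highest estimate, as the markers at the lower and upper end of the estimates. Both are on the minus strand and are printed 5′ to 3′ toward the start site from RefSeq windows on GRCm38.p6, with each CG pair in capitals: Otx2 at chr14:48667645-48667894 and Gata3 at chr2:9878601-9878850.
Otx2: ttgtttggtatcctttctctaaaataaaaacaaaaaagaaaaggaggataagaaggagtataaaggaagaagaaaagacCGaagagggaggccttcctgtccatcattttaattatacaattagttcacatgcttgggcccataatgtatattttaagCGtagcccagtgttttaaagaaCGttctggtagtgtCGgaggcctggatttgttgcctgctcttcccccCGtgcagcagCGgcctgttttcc
Gata3: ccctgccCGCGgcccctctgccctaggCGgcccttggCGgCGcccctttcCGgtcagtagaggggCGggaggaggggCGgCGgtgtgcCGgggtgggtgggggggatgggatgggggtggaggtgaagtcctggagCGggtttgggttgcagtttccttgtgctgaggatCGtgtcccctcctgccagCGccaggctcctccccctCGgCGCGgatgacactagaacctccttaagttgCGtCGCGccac
The Otx2 window is 42.0% G or C and holds 6 CG pairs, the median number over 32851 windows of this length, whose median content is 52.4%. The windows before 3 other Otx2 starts hold 8, 9 and 14 CG pairs, the last of them before position 48665109, so the number depends on the start taken. The Gata3 window is 70.0% G or C and holds 19 CG pairs, and an exon of the antisense gene Gm13256 overlaps it. The letters TGCACAC, described as a binding motif of Zscan4c, occur on either strand in 3.67% of all windows and in 3 of the 33 windows of 23 markers, those of Dab2, Krt18 and Pax6. They occur in neither printed window.

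No ectoderm marker passed the test. Nes, which encodes the intermediate filament nestin of neural progenitors, had a scaled FPKM of 1.66 and 1.42 in Em+ cells and 1.5 and 1.39 in Em- cells, with a log2 fold change of 0.09 (95% interval -0.18 to 0.36, adjusted p = 0.651 in edgeR). Pax6, a regulator of eye and neural tube, had 0.391 and 0.313 in Em+ cells and 0.349 and 0.285 in Em- cells. Sox1, an early marker of neuroectoderm, was the only gene of this group whose fractions did not overlap. It had 0.675 and 0.765 in Em+ cells and 0.802 and 0.881 in Em- cells, and its log2 fold change with no filter was -0.29 (-0.62 to 0.04, adjusted p = 0.266 in edgeR). The group's scaled FPKM summed to 2.72 and 2.50 in Em+ cells and to 2.66 and 2.56 in Em- cells.

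All 7 mesoderm markers lay under a mean FPKM of 1, and none passed the test. Eomes, a T-box factor of the primitive streak that also acts in trophectoderm, was the highest of them and the most precisely measured. It had 1.04 and 0.993 in Em+ cells and 0.986 and 0.952 in Em- cells, a log2 fold change of 0.01 (95% interval -0.30 to 0.32). T, the brachyury gene of the streak, was read 10 times in each Em+ library and 12 and 4 times in the Em- libraries. Mixl1, a streak homeobox gene, gave 24 and 14 reads in Em+ cells and 22 and 23 in Em- cells. Both genes overlapped between fractions.

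The other mesoderm markers were read at most 30 times in a library. Kdr, the receptor of vascular endothelial growth factor, gave 23 and 30 reads in Em+ cells and 13 and 23 in Em- cells, with a log2 fold change of 0.64 (-0.17 to 1.44, adjusted p = 0.308 in edgeR). Hand1, a factor of heart, extraembryonic mesoderm and placenta, gave 16 and 8 reads in Em+ cells and 7 and 5 in Em- cells, with a log2 fold change of 1.06 (-0.13 to 2.25, adjusted p = 0.258 in edgeR). Gsc, a homeobox gene of the organizer, gave 13 and 14 reads against 13 and 8. On scaled FPKM both Em+ libraries lay above both Em- libraries for these 3 genes and for Eomes, 4 of the 7, beside 46.5% of all symbols under a mean FPKM of 1, and every interval held 0. Mesp1, a factor of early cardiac mesoderm, gave 1 and 8 reads in Em+ cells and 1 and 3 in Em- cells, and its log2 fold change went from 1.20 to -0.90 without Em+ replicate 2.

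Endoderm markers were likewise low, and Sox17 had the clearest separation among them. Sox17, a factor of primitive and definitive endoderm, had a scaled FPKM of 0.470 and 0.480 in Em+ cells and 0.282 and 0.270 in Em- cells, from 51, 46, 31 and 31 reads. Both Em+ libraries were higher, and replicates of a fraction were close to each other. The log2 fold change with no filter was 0.72 (SE 0.23, 95% interval 0.21 to 1.23), or 1.65-fold, with an unadjusted p of 0.0103 and an adjusted p of 0.0962 in edgeR, so it did not pass. It was 0.70 to 0.75 when each library was left out in turn, with no call in any of these fits.

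Gata4 and Gata6, zinc finger factors that specify primitive endoderm, were not called either. Gata4, the only endoderm marker above a mean FPKM of 1, had 1.12 and 1.16 in Em+ cells and 1.25 and 1.15 in Em- cells, with a log2 fold change of -0.08 (95% interval -0.38 to 0.22, adjusted p = 0.733 in edgeR). Gata6 had 0.510 and 0.474 in Em+ cells and 0.453 and 0.434 in Em- cells, a log2 fold change of 0.09 (-0.35 to 0.53). Pdgfra, a receptor found on primitive endoderm, had a log2 fold change of 0.01 (-0.50 to 0.52). Whether Sox17 differs from Gata4, Gata6 or Pdgfra was not tested. Both Em+ libraries lay above both Em- libraries for 4 of the 8 endoderm markers: Gata6, Sox17, Dab2 and Afp. All of these are under a mean FPKM of 1, where 46.5% of all symbols were separate in this way.

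The rest of the endoderm group did not pass either. Dab2, an endocytic adaptor of visceral endoderm, had 0.668 and 0.605 in Em+ cells and 0.464 and 0.577 in Em- cells, with a log2 fold change of 0.23 (-0.18 to 0.64). Sox7, a parietal endoderm factor, gave 6 and 9 reads in Em+ cells and 6 and 11 in Em- cells. Foxa2, a forkhead factor of definitive endoderm, gave 13 and 14 reads against 19 and 14. Afp, the fetal serum protein alpha-fetoprotein of visceral endoderm and liver, was nearly absent, with 4 reads in both Em+ libraries together and 1 in the Em- libraries, a scaled ratio of 4.40 with an exact 95% interval of 0.436 to 217 that covers counting error only.

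The trophectoderm markers held genes at a clear level and genes near 0. Cdx2, the homeobox factor that defines trophectoderm, had 4 reads in the Em+ libraries and 3 in the Em- libraries, a scaled ratio of 1.47 (exact 95% interval 0.248 to 10.02). Elf5, a factor of trophoblast stem cells, gave 18 and 29 reads in Em+ cells and 16 and 26 in Em- cells. Both were at most at 0.396 scaled FPKM in any library, while Krt18, Tfap2c, Tead4 and Ascl2 all exceeded 2.

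Tead4, the factor that acts with Yap1 upstream of Cdx2, was 1 of 2 trophectoderm markers with both Em+ libraries below both Em- libraries, the other being Ascl2. Of all symbols with a mean FPKM of at least 1, 29.6% were separate in this way. The reverse held for 4 of the 10 trophectoderm markers: Tfap2c, Krt8, Krt18 and Gata3. It also held for 29.8% of all symbols with a mean FPKM of at least 1. Below that level, where Gata3 lies, it held for 46.5%. Tead4 had a scaled FPKM of 4.78 and 5.35 in Em+ cells and 6.05 and 6.20 in Em- cells, without overlap. The log2 fold change was -0.28 (SE 0.09, 95% interval -0.48 to -0.08), with an unadjusted p of 0.0133 and an adjusted p of 0.111 in edgeR. It was called when either Em+ library was left out, at -0.36 (adjusted p = 0.00761) without replicate 2 and -0.20 (adjusted p = 0.0434) without replicate 1, where 16.3% and 41.4% of all genes tested were called. At this level the markers called were Otx2 and Tead4 in both of these fits and Gata2 without replicate 1. With no filter Tead4 was also called with ENCODE models (adjusted p = 0.0453 in edgeR), as were 5.66% of all symbols. In the fits without an Em+ library the lone Em+ library is assumed to vary as the Em- libraries do.

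Gata3, a zinc finger factor of trophectoderm, had the opposite direction at a very low level. It gave 8 and 17 reads in Em+ cells and 3 and 4 in Em- cells, which is 0.0664, 0.160, 0.0236 and 0.0311 in scaled FPKM. Both Em+ libraries were higher, and replicate 2 lay well above replicate 1. The log2 fold change with no filter was 1.88 (95% interval 0.46 to 3.31), or 3.69-fold, with an unadjusted p of 0.015 and an adjusted p of 0.115 in edgeR. It was 1.18 (adjusted p = 0.345) without Em+ replicate 2 and 2.39 (adjusted p = 0.0172) without Em+ replicate 1. With Ensembl transcript models it was 2.37 and passed, at an adjusted p of 0.0372 in edgeR, where 5.19% of all symbols did. The Ensembl sum includes overlapping transcripts with equal counts (3 and 1 in Em+ cells, 0 and 0 in Em- cells). Some reads may therefore enter it more than once. Without Em+ replicate 1 and with no filter, 29.1% of all symbols were called.

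**Figure D3:**
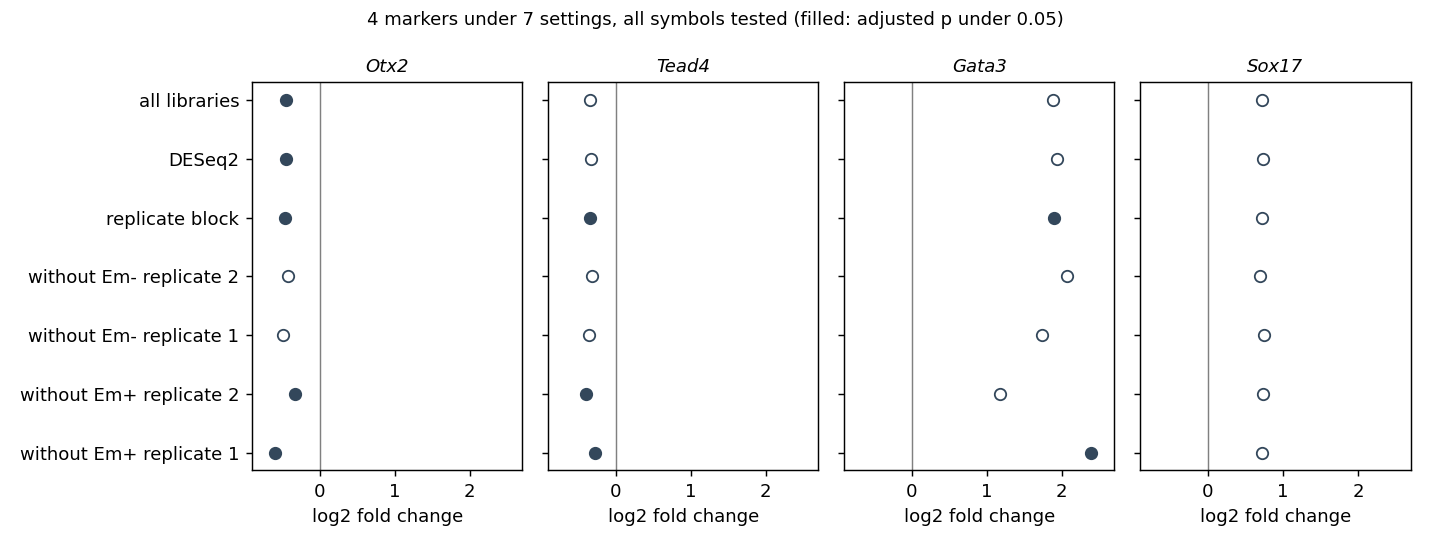
Log2 fold change of Otx2, Tead4, Gata3 and Sox17 in fits with no filter under 7 settings, with filled points where the adjusted p is under 0.05. Every estimate keeps its sign, Otx2 and Tead4 below 0 and Gata3 and Sox17 above it, while the calls come and go for the first 3 and Sox17 is never called.

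Keratins 8 and 18 pair to form the filaments of simple epithelia, including trophectoderm. Krt8 had a scaled FPKM of 1.85 and 1.61 in Em+ cells and 1.28 and 1.31 in Em- cells, with no overlap and a log2 fold change of 0.42 (SE 0.15, 95% interval 0.06 to 0.77). Its unadjusted p was 0.0276 and its adjusted p 0.153 in edgeR, so it did not pass, and it was 0.51 without Em+ replicate 2 (adjusted p = 0.0737). Krt18, at 8.32 and 7.74 in Em+ cells and 7.51 and 7.68 in Em- cells, had a log2 fold change of 0.08 (-0.13 to 0.30, adjusted p = 0.609 in edgeR). The difference between the changes of these keratins was not tested.

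Of the other trophectoderm factors, none passed. Tfap2c, an AP-2 factor shared with germ cells, had 5.84 and 6.14 in Em+ cells and 5.51 and 5.55 in Em- cells, with a log2 fold change of 0.11 (-0.06 to 0.29, adjusted p = 0.379 in edgeR). Ascl2, a basic helix-loop-helix factor of trophoblast, had 2.98 and 3.06 against 3.12 and 3.23, a log2 fold change of -0.07 (-0.34 to 0.20). Gata2, a relative of Gata3, had 1.38 and 1.80 in Em+ cells and 1.44 and 1.28 in Em- cells, with a log2 fold change of 0.22 (-0.15 to 0.59, adjusted p = 0.41 in edgeR).

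Gata2 and Tfap2a, a relative of Tfap2c, turned on Em+ replicate 2. Tfap2a gave 55 reads there, against 21, 31 and 34 in Em+ replicate 1 and Em- replicates 1 and 2. Its log2 fold change with no filter was 0.31 (95% interval -0.62 to 1.25), but -0.61 without Em+ replicate 2 and 0.91 without Em+ replicate 1 (adjusted p = 0.29 and 0.0285 in edgeR). Gata2 was at 0.02 without Em+ replicate 2 and at 0.41 without Em+ replicate 1 (adjusted p = 0.931 and 0.043 in edgeR).

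Read as groups, the lineages had median log2 fold changes with no filter of -0.06 for the 3 primed markers, 0.03 for ectoderm, 0.44 for mesoderm, 0.05 for endoderm and 0.20 for trophectoderm, beside 0.03 over all symbols. The mesoderm markers all lay under a mean FPKM of 1, where the median over all symbols was 0.39. The trophectoderm median was -0.07 without Em+ replicate 2, the mesoderm median 0.11 without Em- replicate 2, and the primed median 0.09 without Em- replicate 1. The scaled FPKM of the mesoderm markers summed to 2.11 and 2.21 in Em+ cells and to 1.87 and 1.67 in Em- cells. For endoderm the sums were 3.15 and 3.22 against 2.90 and 2.85, and for trophectoderm 25.6 and 26.8 against 25.4 and 25.9. In the primed group, which Otx2 dominates, they were 14.3 and 12.6 against 16.7 and 16.9.

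The upward lean of the rare markers was also that of rare transcripts in general. Of the 20 markers with a mean FPKM under 1, 16 had an estimate above 0 (median 0.28), and among all 7747 symbols at that level 74.8% did (median 0.39). Both Em+ libraries lay above both Em- libraries for 9 of the 20 and for 46.5% of these symbols, and the reverse held for 1 of the 20 (Sox1) and for 6.27%. Among the 12050 symbols with a mean FPKM of at least 1, 39.9% had an estimate above 0 in the same fit, and 6 of the 11 markers did. Without Em+ replicate 2 the low group stood at 12 of 20 markers and 67.1% of symbols. Over all levels, the fractions were separate with Em+ higher for 12 of 31 markers, against 36.3% of all symbols, and with Em- higher for 4 of 31 (Otx2, Sox1, Ascl2 and Tead4), against 20.5%.

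**Figure D4:**
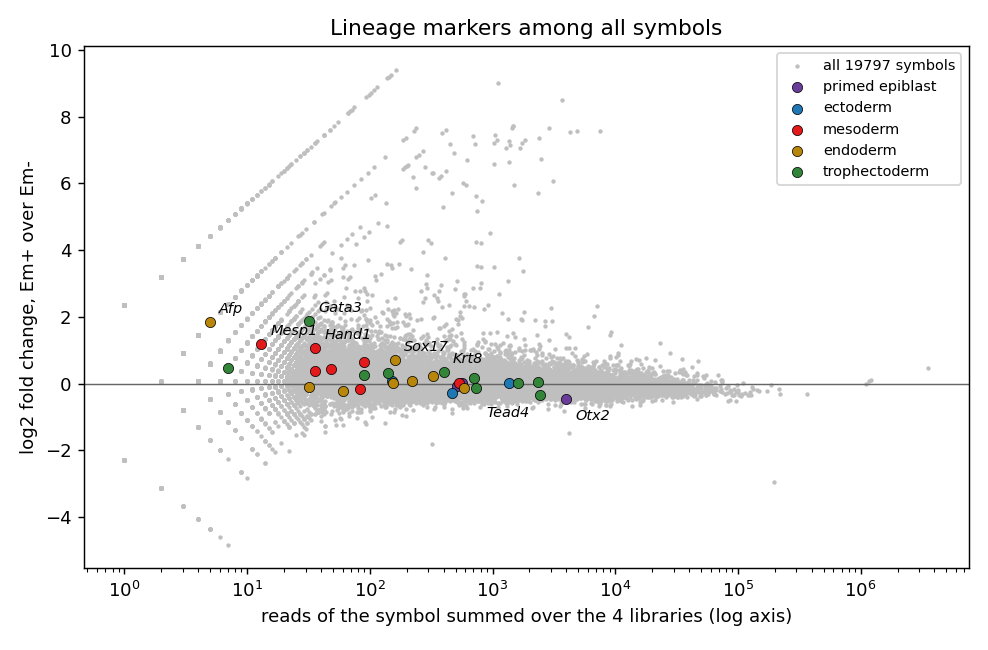
Log2 fold change in the fit with no filter against the number of reads in the 4 libraries for all 19797 symbols (grey) and the 31 lineage markers (coloured). The markers lie within the spread of other symbols with like read numbers, and that spread is wide and shifted above 0 where reads are few.

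A further 63 genes of the same lineages were listed as companions, 58 of which are in the table and 20 of which had a mean FPKM of at least 1. In the main test 1 of the 20 was called higher and 0 lower, beside 3.82% and 0.822% of all genes tested. The companion called was Id2, an inhibitor of basic helix-loop-helix factors that is used as an early trophectoderm marker. Id2 had a scaled FPKM of 10.6 and 9.14 in Em+ cells and 5.55 and 4.98 in Em- cells, so Em+ cells were higher in both libraries. The change was 0.91 on the log2 scale (SE 0.12, adjusted p = 0.00529 in edgeR), with 0.80 to 1.01 when each library was left out in turn.

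With no filter, 3 of the 58 companions were called higher and 0 lower, beside 4.48% and 1.47% of all symbols. The additional genes, named after their values were seen, were Foxa1 and Fgfr2. Foxa1, a forkhead factor of endoderm, gave 26 and 29 reads in Em+ cells and 5 and 7 in Em- cells, a 4.77-fold difference (log2 2.25, 95% interval 1.36 to 3.14, adjusted p = 0.0103 in edgeR). Fgfr2, the receptor through which trophoblast stem cells receive fibroblast growth factor, gave 80 and 80 reads against 43 and 35, a 2.16-fold difference (log2 1.11, 0.65 to 1.58, adjusted p = 0.014 in edgeR).

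The companions named for the other lineages by their level did not pass. In the primed group, Sox4, an SRY-related factor, was at 4.60 ± 0.416 (SD, n = 2) in Em+ and 4.82 ± 0.112 in Em- cells. Tubb3, the neuronal beta-tubulin, was at 6.91 ± 0.729 and 5.07 ± 0.194, with a log2 fold change of 0.45 and an adjusted p of 0.0637 in edgeR, and Map2, a neuronal microtubule protein, was at 1.05 ± 0.118 and 0.789 ± 0.146. The mesoderm factors Tbx6 and Mesp2 were at 2.55 ± 0.682 and 1.43 ± 0.236 in Em+ cells and at 1.89 ± 0.114 and 1.21 ± 0.134 in Em- cells. For endoderm, the basement membrane genes Sparc and Lamc1 were at 49.7 ± 3.83 and 32.8 ± 0.489 in Em+ cells and at 53.2 ± 0.200 and 33.2 ± 0.342 in Em- cells, with log2 fold changes of -0.10 and -0.02.

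Markers of other cells and of the ES state moved as follows beside these values. Of the ES cell list, 1 of 9 was called, Nanog, at 121 ± 10.1 (SD, n = 2) in Em+ and 87.2 ± 2.95 in Em- cells (log2 0.48, adjusted p = 0.0192 in edgeR). Klf4 and Sall4 were likewise separate with Em+ higher, and 4 of the 9 were separate with Em- higher: Pou5f1 (log2 -0.27), Sox2 (-0.29), Esrrb (-0.19) and Dppa5a (-0.20), none of which passed. Of all symbols with a mean FPKM of at least 1, 29.8% were separate with Em+ higher and 29.6% with Em- higher, and 4.64% were called. Of 7 fibroblast or feeder markers, 3 are in the table and all were higher in both Em+ libraries, with a summed scaled FPKM of 6.01 and 5.82 against 3.06 and 3.27. Nearly all of that sum was Thy1, which was called (log2 0.89, adjusted p = 0.00386 in edgeR), while the defining genes Col1a1 and Col1a2 were at 0.279 and 0.108 in Em+ and 0.125 and 0.0496 in Em- cells. Among symbols under a mean FPKM of 1, as both collagen genes are, 46.5% were higher in both Em+ libraries. Col3a1, Dcn, Lum and Postn were not analysed here. Of the blood and endothelial list, Pecam1, which ES cells express, was at 32.6 and 32.7, and Cdh5 at 0.0395 and 0.0123. The part of such cells in the lineage values was not tested.

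The 4 transcript models gave nearly the same comparison. Of the 31 markers, 29 had the same sign in all 4 tables, 23 had log2 fold changes within 0.1 of each other, and 5 spanned over 0.3. The widest span was 0.49, for Gata3. The numbers of reads did differ: Tfap2c had 2365 in the RefSeq and 836 in the Ensembl table, Sox1 468 and 73, and Eomes 537 and 206. The sign differed for Eomes, at 0.01 and -0.22 in these tables, and for Pax6, at 0.09 in the RefSeq and -0.01 in the known-gene table. In the GENCODE M21 annotation, exons of 10 of the 32 markers overlap exons of a gene on the other strand, among them Otx2, Sox17, Krt8 and Gata3, and those of 5 overlap one on the same strand. Whether counting used strand is not given in the sources used here, so reads of these pairs cannot be told apart.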

How the data were processed

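The authors deposited 4 tables with 1 line per transcript (RefSeq, known-gene, Ensembl and ENCODE models), which per the file headers hold a raw count and an FPKM value for each library. The submitters' processing notes name Bowtie2 and mm10. The counting program, annotation releases and strand setting are not stated there or in the labels. Groups were taken from the sample titles, which the cell type field matches, while each of the 4 descriptions gives the other fraction.

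Em- replicate 1 has an all-0 count column in 2 tables (RefSeq, Ensembl), so its counts were computed from its deposited FPKM, the transcript length and the library total. Run on the other libraries, this gave back the deposited count without error in 99.93 to 99.95% of 24538 RefSeq transcripts. Counts and FPKM were summed per symbol. The main test was edgeR 4.0.16 (R 4.3.3; quasi-likelihood, TMM scaling, two-sided, no covariate) on symbols with a mean FPKM of at least 1, with Benjamini-Hochberg adjustment over all of them and a threshold of 0.05. The common biological coefficient of variation was 0.0731. Scaled FPKM is the deposited FPKM times a TMM-based factor per library (0.977 and 1.15 for Em+ replicates 1 and 2, 0.946 and 0.943 for Em- replicates 1 and 2). DESeq2 1.42.0, limma 3.58.1 on log2(FPKM + 1) and log2(FPKM + 0.1), other scalings, filters and tables, a replicate block and leaving out each library were alternatives. The limma fits took the deposited FPKM without the TMM-based factor. The test was checked on simulated data.

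The lineage markers, companion lists and cell type lists were chosen with earlier results of these data known. Named in the text are all lineage markers, every companion gene that passed the main test, the 2 of highest mean FPKM in lineages where none passed, the ES cell list by its range and by genes whose fractions did not overlap, and the summed Zscan4 level. A gene that this rule names is not reported here.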

Additional observations from a re-analysis of the deposited data

How the results depend on the processing

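The number of genes called, 559 in the main test, was 269 with limma on log2(FPKM + 0.1), 293 with limma on log2(FPKM + 1), 1178 with no filter, 1334 with a total count of at least 10 and 171 with a mean FPKM of at least 5, the last over fewer genes, and 490 to 4992 when each library was left out in turn. Lineage markers called lower went from 0 to 1 with DESeq2, no filter or a total count of at least 10 (Otx2 each time) and were 0 to 2 with a library left out, and those called higher were 0 to 1. Companion genes called went from 1 to 2 with the Ensembl or ENCODE table, to 3 with no filter or a total count of at least 10, and were 1 to 10 with a library left out. With the replicate number as a block, 1552 genes (12.9%), 1 lineage marker called lower (Otx2, adjusted p = 0.00682 in edgeR) and 3 companions were called. Deviations of same-numbered libraries had a correlation of 0.00337. With 2 libraries a fraction, this value cannot tell whether same-numbered libraries were paired. With the block and no filter, 12.9% of all symbols were called. Among the markers, Otx2 was called at -0.46, Gata3 at 1.90 and Tead4 at -0.34 (adjusted p = 0.000459, 0.0428 and 0.0234 in edgeR). Group medians moved to -0.36 for the primed markers at a mean FPKM of at least 5 (only Otx2 is left there), to -0.08 for endoderm at a mean FPKM of at least 1 (only Gata4 is left), and to 0.05 for mesoderm and 0.02 for trophectoderm with limma on log2(FPKM + 1). With a library left out they ran from -0.19 to 0.09 (primed), -0.10 to 0.16 (ectoderm), 0.11 to 0.68 (mesoderm), 0.07 to 0.22 (endoderm) and -0.07 to 0.28 (trophectoderm). Log2 fold changes of uncalled markers changed sign as follows. On log2(FPKM + 0.1) they were -0.09 for Pou3f1, -0.07 for Nes, -0.01 for Pax6, -0.09 for Eomes, -0.01 for Gata6, -0.06 for Pdgfra, -0.05 for Tfap2c and -0.08 for Krt18. On log2(FPKM + 1) they were -0.05 for Pou3f1, -0.04 for Nes, -0.05 for Eomes, -0.01 for Pdgfra, -0.04 for Tfap2c and -0.07 for Krt18, where the median over all genes was itself -0.135. With no filter, 24.3% of symbols with a mean FPKM of at least 1 were above 0 on log2(FPKM + 0.1). The share was 24.4% on log2(FPKM + 1) and 39.9% in edgeR. The known-gene table gave -0.01 for Pax6, and the Ensembl and ENCODE tables -0.22 for Eomes. With a library left out, Pou3f1 ran from -0.05 to 0.17, Nes from -0.03 to 0.19, Pax6 from -0.09 to 0.26, T from -0.21 to 1.40, Eomes from -0.04 to 0.06, Mixl1 from -0.53 to 0.11, Mesp1 from -0.90 to 2.10, Sox7 from -0.48 to 0.37, Foxa2 from -0.44 to 0.06, Pdgfra from -0.03 to 0.05, Cdx2 from -0.52 to 1.09, Elf5 from -0.20 to 0.62 and Tfap2a from -0.61 to 0.91. Foxd3, at 0.00 in the main test, ran from -0.13 to 0.14 with a library left out. It was -0.15 on log2(FPKM + 0.1) and -0.09 on log2(FPKM + 1). Otx2, Tead4, Sox17, Gata3, Krt8 and Id2 kept their direction in every fit run. So did markers never called, with Sox1, Gata4 and Ascl2 below 0 and Gsc, Kdr, Hand1, Dab2 and Afp above it. The cause of these changes was not tested, other than where fewer genes were left.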
